A study of Mus musculus with 3 samples.

Results

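Cells that carried Arg1 together with the macrophage receptor gene Csf1r were found in both libraries from tumour-bearing mouse skull and not in the tumour-free skull. They were chosen by measured UMIs of these and 5 other genes, among barcodes with at least 500 genes and at most 10% mitochondrial UMIs (unique molecular identifiers, the counted RNA molecules). A member had at least 3 Arg1 UMIs and at least 1 Csf1r UMI. It also had under 10 Ctsk UMIs, under 5 Krt8 and Krt18 UMIs, and under 10 Col1a2 and Col3a1 UMIs per 10000 UMIs of the cell, limits that keep out osteoclasts, tumour cells and fibroblasts. Of 23831 kept cells, 473 met the rule: 359 of 9103 in the scratch-positive library, 114 of 8151 in the scratch-negative library and 0 of 6577 in the control library.

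The 3 droplet libraries came from calvaria, the flat bones of the skull vault, of C57BL/6 mice aged 8 weeks. In the scratch-positive mice the bone was first scratched with a needle, which takes off the periosteum, and HNM007 cells, a mouse squamous carcinoma line, were then implanted, a setting the labels call invasive. In the scratch-negative mice the same cells were placed on intact bone, the setting called pre-invasive, and the control calvaria received no tumour. Tumour-bearing tissue was taken 1 week after implantation, the visible tumour was removed, and sorted live cells with CD45, the common leukocyte protein, and without it were put together 1:1 for capture. No library from scratched bone without tumour was analysed here, so scratch, lost periosteum and invasion cannot be told apart. Each group is 1 library, so no difference below has a replicate check and none has a p-value. The 95% intervals cover counting error only.

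Arginase 1 splits arginine into ornithine and urea, and in mouse macrophages it is a classic marker of alternative, interleukin-4-type activation that is also found in tumours and wounds. Osteopontin, encoded by Spp1, is a secreted matrix protein of bone, of many carcinomas and of macrophages that take up lipid. CCL2, CCL7 and CCL12 draw CCR2-bearing monocytes out of the blood, and MHC class II molecules show peptides to helper T cells. Type I interferon-stimulated genes encode antiviral proteins and are a common readout of interferon in a tissue. In the GRCm38 annotation Arg1 lies on chr10:24915221-24927484 (minus strand), Spp1 on chr5:104435118-104441050 (plus strand) and Ccl12 on chr11:82101845-82103400 (plus strand).

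The members carried macrophage markers, and most of them also carried neutrophil RNA. All 12 macrophage markers checked were detected in both tumour libraries, 1 of them Csf1r, which the rule requires. With all 12, the summed level was 12240 CPM (UMIs per 1000000 UMIs of the summed cells) in scratch-positive and 8110 CPM in scratch-negative members, against 9192 and 8935 CPM in the Csf1r-free neutrophils, which are rich in Lyz2, the lysozyme gene. Without Csf1r and Lyz2, the other 10 summed to 5898 CPM in scratch-positive and 2373 CPM in scratch-negative members, against 750.0 and 600.2 CPM in the neutrophils. At least 50 UMIs per 10000 came from S100a8 and S100a9, the abundant neutrophil alarmin genes, in 249 of the 359 scratch-positive and in 99 of the 114 scratch-negative members. These 2 genes made up 8.97% of all UMIs of scratch-positive and 23.8% of all UMIs of scratch-negative members. The low-S100 cells of scratch-positive met the label of a macrophage most directly. Of these 110, the macrophage genes C1qa and Adgre1 were found in 66 and 61, and the monocyte genes Ccr2 and Ly6c2 in 79 and 22. Of the 15 low-S100 cells of scratch-negative, C1qa was found in 3, Adgre1 in 6, Ccr2 in 12 and Ly6c2 in 10. The label is thus less clear in scratch-negative, and the whole set is called Arg1-positive cells here.

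The 348 members high in S100 genes carried both kinds of marker. Their neutrophil markers had a median of 37.4% (scratch-positive) and 78.6% (scratch-negative) of the level in Csf1r-free neutrophils of the same library, while the 10 macrophage markers had a median of 86.8% and 53.0% of the level in low-S100 members. Arg1, fixed by the rule, was at 543 CPM in scratch-positive and 632 CPM in scratch-negative high-S100 members, against 4.10 and 3.26 CPM in the Csf1r-free neutrophils of these libraries. Members had a median of 32750 UMIs in scratch-positive and 38210 in scratch-negative, and the low-S100 members 26100 and 15160. The doublet caller Scrublet marked 12 of 359 and 13 of 114 members and 0 of the 125 low-S100 members. Its own threshold marked 6.37%, 0.0123% and 0% of cells in scratch-positive, scratch-negative and control and so did not work in the last 2, and a share fixed by cell number, 723, 580 and 449 cells, was marked in all 3 libraries instead. Whether 2 cells in 1 droplet, free RNA, engulfed neutrophils or the cell's own expression gave the S100 RNA was not tested. In scratch-positive, the monocyte markers described below summed to 4321 CPM in high-S100 and 880.5 CPM in low-S100 members. The S100 limit thus also left out the members with more RNA of these markers. Ly6c2, one of the markers, was also found in 90.6% of the Csf1r-free neutrophils of scratch-positive. The part of neutrophil RNA in this difference was not tested. The main results are therefore given for all members and for the 110 scratch-positive and 15 scratch-negative members under the S100 limit, and a value given for 1 choice of cells names it.

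**Figure D1:**
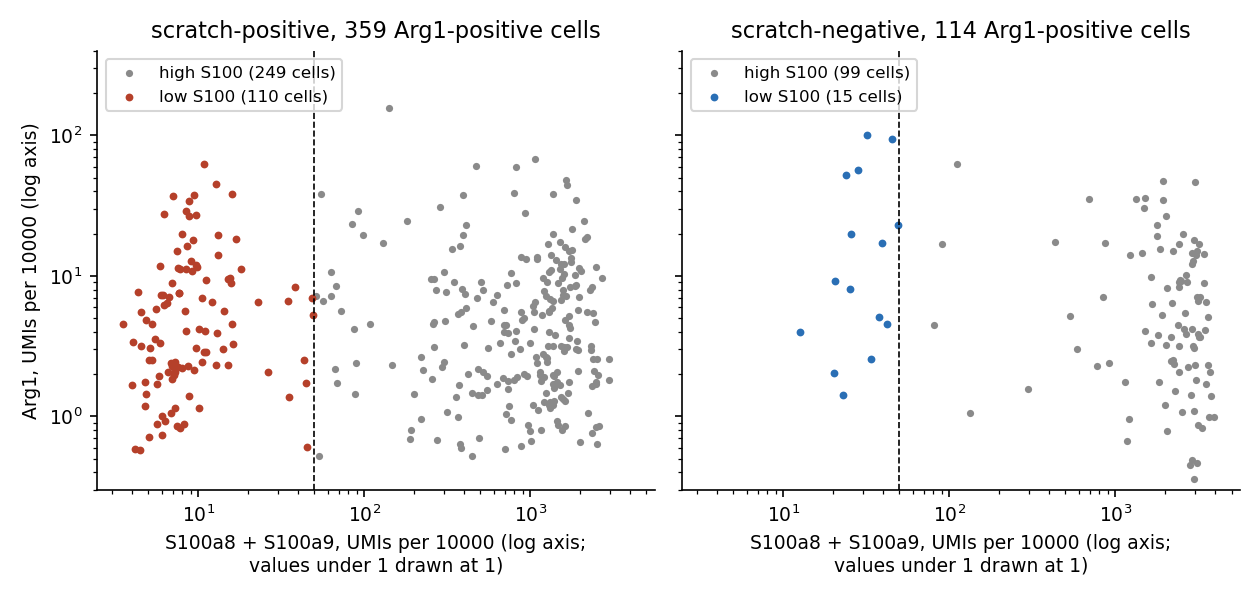
Each point is 1 Arg1-positive cell, with its S100a8 and S100a9 UMIs per 10000 and its Arg1 UMIs per 10000 on log axes, in scratch-positive and scratch-negative libraries; the dashed line marks 50 S100 UMIs per 10000. Of the cells, 110 of 359 in scratch-positive and 15 of 114 in scratch-negative lie under the line, and cells of low and high Arg1 lie on both sides of it.

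Traces of other cell types were present in the low-S100 members. Epithelial markers summed to 84.4 CPM in scratch-positive and to 0 CPM in scratch-negative low-S100 members. At least 5 UMIs of lymphocyte genes were present in 11 of 110 scratch-positive and 2 of 15 scratch-negative low-S100 members, and in 61 of 359 and 28 of 114 of all members. In Arg1-negative low-S100 cells the counts were 10 of 240 in scratch-positive and 9 of 136 in scratch-negative, smaller shares than in the members. The low-S100 members were also deeper, with medians of 26100 and 15160 UMIs against 13610 and 10120. The limit is a fixed number of UMIs, and the part of depth in these shares was not tested. At least 5 UMIs of dendritic cell genes were present in 2 of the 110 scratch-positive cells, against 25 of the 240 Arg1-negative cells of the same gate. In scratch-negative they were present in 2 of 15 Arg1-positive and 6 of 136 Arg1-negative low-S100 cells. The libraries shared 27 (scratch-positive with scratch-negative), 18 (scratch-positive with control) and 14 (scratch-negative with control) barcodes, and no member was shared.

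Arg1-positive cells made up a larger share of the Csf1r-positive cells in the scratched, invaded bone than on intact bone. They were 37.5% (359 of 958 cells; exact Clopper-Pearson interval 34.4% to 40.6%) in scratch-positive, 11.3% (114 of 1007; 9.43% to 13.4%) in scratch-negative, and 0 of 834 in control (upper limit 0.360%, from 3 counts). Among low-S100 Csf1r-positive cells the shares were 28.5% (110 of 386; 24.0% to 33.3%) in scratch-positive, 9.49% (15 of 158; 5.41% to 15.2%) in scratch-negative, and 0 of 175 in control, with an upper limit of 1.71%. Of all kept cells they were 3.94% in scratch-positive, 1.40% in scratch-negative and 0 in control (upper limit 0.0456%), with the 1:1 mixing part of that denominator. The rule fixes a number of UMIs, and kept cells had a median of 38660 UMIs in scratch-positive, 11820 in scratch-negative and 9078 in control. With each cell thinned to 5000 UMIs, shallower cells left out and the whole rule applied again to the thinned UMIs, 505 scratch-positive and 423 scratch-negative cells still held a Csf1r UMI, and the shares were 17.8% (90 cells) and 6.38% (27 cells). The scratch-positive share was thus the higher one at equal depth too. The make-up of the Csf1r-positive cells also differed, with 386 of 958 low in S100 in scratch-positive and 158 of 1007 in scratch-negative. Among low-S100 cells rich in C1q RNA (C1q-high, defined below), scratch-positive held 59 Arg1-positive and 91 Arg1-negative cells, and scratch-negative 4 and 8. The scratch-negative numbers are too small to compare shares within this kind. The part of the make-up in the shares was not tested.

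Arg1 itself chose the cells, so its levels are a description. A member held a median of 13 Arg1 UMIs in scratch-positive (quartiles 5 and 27, highest 138) and of 21 in scratch-negative (quartiles 8 and 44, highest 185). The summed level was 563 CPM in scratch-positive and 690.2 CPM in scratch-negative members, and 634 and 1757 CPM in the low-S100 members. At the threshold, 28 scratch-positive and 4 scratch-negative members held exactly 3 Arg1 UMIs and 34 and 4 held exactly 4. Just outside, 23 and 16 Csf1r-positive cells held 2 UMIs and 61 and 38 held 1. These 138 cells with 1 or 2 UMIs were put in neither group, and the 515 scratch-positive and 839 scratch-negative Csf1r-positive cells with 0 Arg1 UMIs (240 and 136 of them low in S100) served as Arg1-negative cells.

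Most Arg1 RNA of the tumour libraries lay in these cells. Members held 68.6% of the 11229 Arg1 UMIs in scratch-positive and 74.9% of the 5161 in scratch-negative, and the control library held 6 Arg1 UMIs in all. Outside the members, 249 scratch-positive cells had at least 3 Arg1 UMIs, of which 170 were over the Ctsk limit of the rule and 74 over the keratin limit. In scratch-negative 94 such cells lay outside, of which 77 were over the collagen limit, 69 had no Csf1r UMI and 49 had no UMI of Ptprc, the gene for CD45.

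Compared with Arg1-negative cells of the same gate, Arg1-positive cells had more RNA of monocyte-attracting chemokines in both tumour libraries. A gene counts as higher or lower where its summed level differed at least 2-fold, the whole 95% interval of the ratio lay on that side of 1, and the 2 groups held at least 20 UMIs together. Among low-S100 cells, 2.23% of 9826 genes were higher and 5.43% lower in scratch-positive, and 4.47% of 7609 genes were higher and 3.82% lower in scratch-negative. In both libraries at once 0.41% of 7556 genes were higher and 0.529% lower. Without the S100 limit, 1.71% of 11408 genes were higher and 2.27% lower in scratch-positive, 2.6% of 11082 higher and 1.82% lower in scratch-negative, and 0.428% of 10749 higher and 0.233% lower in both. The median log2 ratio over all genes was 0.03 and -0.08 in the low-S100 cells of the 2 libraries. Member cells were deeper than the cells they were set against, with low-S100 medians of 26100 against 13610 UMIs in scratch-positive and 15160 against 10120 in scratch-negative. The part of that in the ratios was not tested.

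Of 12 CC chemokine genes tested in scratch-positive low-S100 cells, 5 were higher and 2 lower, with a median log2 ratio of 0.77. In scratch-negative, 7 of 10 were higher and 0 lower, with a median of 1.87. Ccl2, whose product attracts monocytes through CCR2, was at 1405 CPM in Arg1-positive and 318 CPM in Arg1-negative low-S100 cells of scratch-positive, a ratio of 4.41 (95% interval 4.14 to 4.70). In scratch-negative the Ccl2 levels were 1092 and 257 CPM, a ratio of 4.24, and 59.1% of the Ccl2 UMIs of those 15 Arg1-positive cells came from 1 cell. Over all members Ccl2 was at 1159 against 298 CPM in scratch-positive and at 440 against 110.2 CPM in scratch-negative, so the ratio was 3.89 and 3.99. Without that cell the scratch-negative low-S100 ratio of Ccl2 was 1.80, under the limit for a call, and without the highest cell of scratch-positive it was 4.18.

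Ccl7, which binds CCR2 and other receptors, was at 499 CPM in Arg1-positive and 98.1 CPM in Arg1-negative low-S100 cells of scratch-positive (ratio 5.08; 4.54 to 5.70). Over all members Ccl7 was at 448 against 87.6 CPM in scratch-positive and at 202 against 43.1 CPM in scratch-negative, ratios of 5.11 and 4.69. The scratch-negative low-S100 level of Ccl7, 518 against 24.0 CPM, rests on 5 cells, 1 of which held 76.8% of the UMIs. Ccl12, one of the genes proposed as a marker of these cells, behaved less evenly. It was at 156 against 104 CPM in scratch-positive low-S100 cells (ratio 1.5, not called), and over all members at 226 against 93.8 CPM (ratio 2.41) in scratch-positive and 33.4 against 17.0 CPM (ratio 1.96, not called) in scratch-negative. A Ccl12 UMI was found in 36.4% of Arg1-positive and 11.3% of Arg1-negative low-S100 cells in scratch-positive, and in 20% and 11.8% in scratch-negative. None of the cells with both B cell genes Cd79a and Cd79b, 31 and 90 in number, held a Ccl12 UMI. Of these cells, 10 in scratch-positive and 16 in scratch-negative held a Ccl2 UMI, and 3 and 6 a Ccl7 UMI. After thinning to 5000 UMIs the Ccl12 shares of low-S100 cells were 26.6% and 6.70% in scratch-positive and 13.3% and 7.58% in scratch-negative. At that depth in scratch-positive, the Ccl2 shares of low-S100 cells were 60.6% and 26.3%, and the Ccl7 shares 34.9% and 9.82%. Collagen-rich cells with no Ptprc UMI had shares of 50.6% for Ccl2 and 59.7% for Ccl7 there. The part of free RNA in the Ccl2 and Ccl7 levels was not tested.

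Other chemokines split in direction. Ccl24, an eosinophil attractant of alternatively activated macrophages, was at 48.4 against 3.64 CPM over all members of scratch-positive (ratio 13.3) and at 124 against 18.5 CPM in scratch-negative (ratio 6.69), but 1 cell held 69.8% of the Ccl24 UMIs of the scratch-positive low-S100 members. Pf4, a CXC chemokine best known from platelets, was at 1213 CPM in Arg1-positive and 338 CPM in Arg1-negative low-S100 cells of scratch-positive (ratio 3.59), and over all members at 1135 against 260.3 CPM there and at 680.4 against 27.9 CPM in scratch-negative. Cxcl14 was at 107 against 28.9 CPM in scratch-positive low-S100 cells. Ccl17 and Ccl22, ligands of CCR4, were lower in scratch-positive low-S100 cells, Ccl17 at 67.3 against 317 CPM and Ccl22 at 6.47 against 21.6 CPM. Cxcl5, a neutrophil attractant, was at 2.63 against 35.5 CPM over all members of scratch-positive and at 0.357 against 10.2 CPM in scratch-negative.

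**Figure D2:**
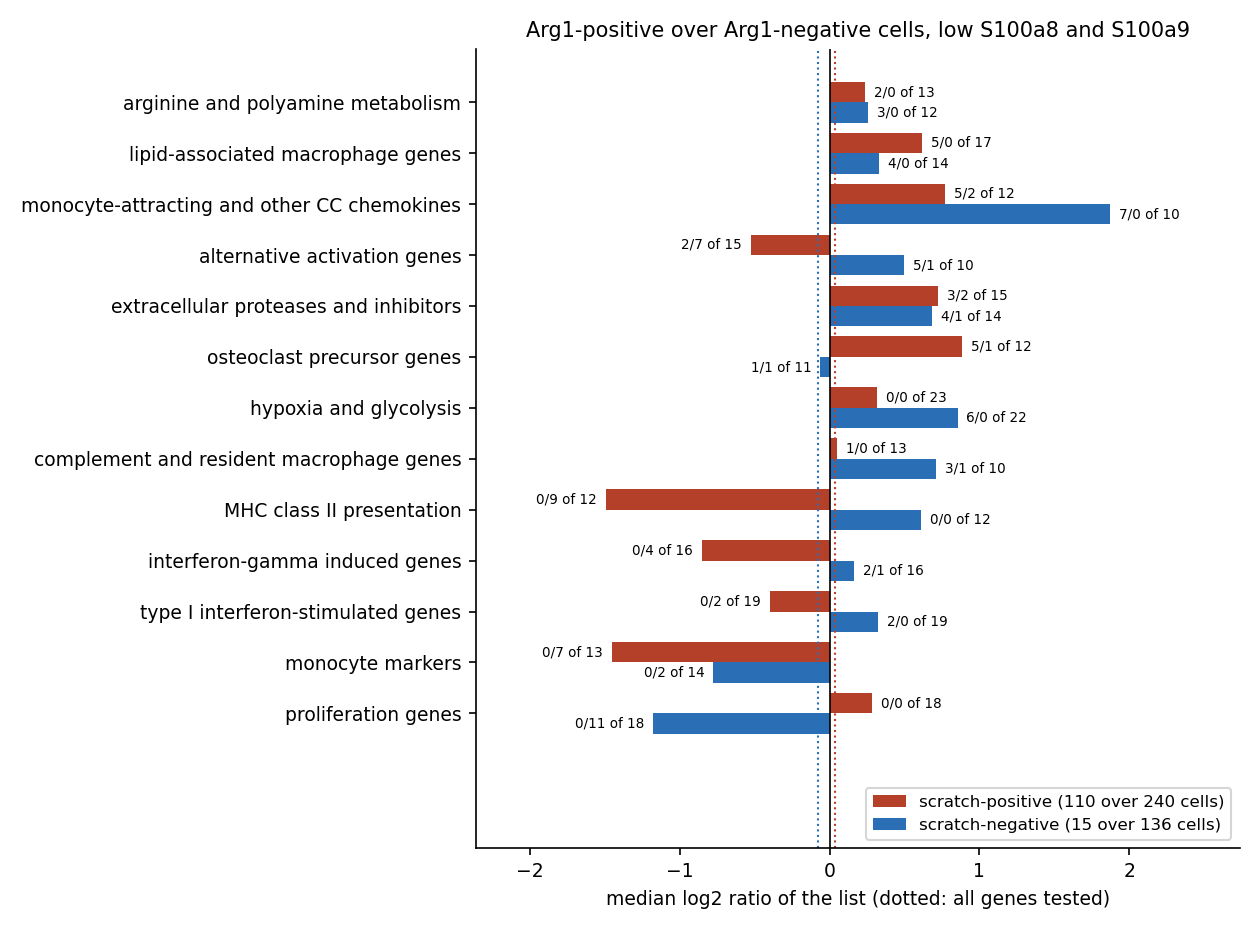
Bars give the median log2 ratio of Arg1-positive over Arg1-negative low-S100 cells for 13 gene lists in the scratch-positive and scratch-negative libraries, with the numbers of genes higher and lower of those tested beside each bar, and dotted lines at the median over all genes. The CC chemokine bar lies above 0 in both libraries (0.77 and 1.87), while the MHC class II bar is at -1.49 in scratch-positive and at 0.61 in scratch-negative.

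Spp1, a proposed marker, was at the edge of the call, and its RNA was widespread in the scratch-positive library. In low-S100 cells Spp1 was at 2452 CPM in Arg1-positive and 1171 CPM in Arg1-negative cells of scratch-positive (ratio 2.09; 2.02 to 2.17) and at 367 and 101 CPM in scratch-negative (ratio 3.63), where 1 cell held 48.6% of the Arg1-positive UMIs. Without the highest cell of each library the Spp1 ratios were 1.98 and 1.91, under the limit for a call. Over all members the Spp1 ratio was 1.95 in scratch-positive (1634 against 840 CPM, not called) and 2.18 in scratch-negative (306 against 140.1 CPM). A Spp1 UMI was found in 94.5% of Arg1-positive and 77.5% of Arg1-negative low-S100 cells of scratch-positive, whose median depths were 26100 and 13610 UMIs. The share was also 51.6% in 31 cells with both Cd79a and Cd79b, B cell genes (median 7257 UMIs), and 72.3% in the Csf1r-free neutrophils (9285 UMIs). At 5000 UMIs each, the Spp1 shares of scratch-positive were 85.3% in Arg1-positive and 64.3% in Arg1-negative low-S100 cells and 52.9% in the 17 Cd79-positive cells deep enough. These Cd79-positive cells are no clean reference, since they also held 1866 CPM of epithelial markers and 14 of the 31 held a Ptprc UMI. The Krt8-positive cells of scratch-positive held 3722 CPM of Spp1, more than the members. A UMI of Spp1 was found in 60% of Arg1-positive and 27.2% of Arg1-negative low-S100 cells in scratch-negative, against 33.3% of the 90 Cd79-positive cells there, which held 277 CPM of epithelial markers. The part of free RNA in the Spp1 levels was not tested.

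The wider set of lipid-associated macrophage genes, known from Trem2-bearing macrophages in fat and plaques, had 5 of 17 members higher and 0 lower in scratch-positive low-S100 cells (median log2 ratio 0.62) and 4 of 14 higher and 0 lower in scratch-negative (median 0.33). Lpl, which encodes lipoprotein lipase, was at 176 CPM in Arg1-positive and 71.5 CPM in Arg1-negative low-S100 cells of scratch-positive but at 75.5 and 73.6 CPM in scratch-negative. Ctsl, encoding the lysosomal protease cathepsin L, was called in both libraries, at 623 against 270.5 CPM in scratch-positive (ratio 2.30) and 511 against 113 CPM in scratch-negative (ratio 4.52). Gpnmb was at 10.0 against 2.01 CPM and the fatty acid transporter gene Cd36 at 13.3 against 4.28 CPM in scratch-positive. Trem2 was at 301 against 158 CPM, a ratio of 1.90 that was not called, and Apoe at 1050 against 683 CPM was not called either.

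Fn1, which encodes fibronectin, was the matrix gene called in both libraries and with either choice of cells. It was at 597 CPM in Arg1-positive and 250 CPM in Arg1-negative low-S100 cells of scratch-positive (ratio 2.39) and at 1057 and 417 CPM in scratch-negative (ratio 2.53). Over all members the Fn1 ratios were 2.93 and 4.21. Per cell, Fn1 had a median of 4.67 UMIs per 10000 in Arg1-positive and 0.392 in Arg1-negative low-S100 cells of scratch-positive. Among the 110 scratch-positive low-S100 members, Fn1 was the gene that went most closely with the Arg1 level of 13 compared (Spearman's rho 0.64), against 0.36 for Ccl2 and 0.28 for Spp1. Mki67, a proliferation gene, had a rho of -0.39 and the cell's own total UMIs a rho of -0.50. These values describe cells of 1 library that differ in depth.

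MHC class II RNA was lower in Arg1-positive than in Arg1-negative cells of the scratch-positive library, and no class II gene was called in the scratch-negative library. In scratch-positive low-S100 cells 9 of 12 genes of class II presentation were lower and 0 higher, with a median log2 ratio of -1.49. In scratch-negative the 12 genes had a median of 0.61. H2-Ab1, a class II chain gene, was at 1178 CPM in Arg1-positive and 4290 CPM in Arg1-negative low-S100 cells of scratch-positive (ratio 0.275; 0.265 to 0.285), but at 2499 and 1377 CPM in scratch-negative (ratio 1.81, not called). H2-Eb1 at 746 against 2957 CPM, Cd74, the invariant chain gene, at 2592 against 7146 CPM, and Ciita, the class II transactivator gene, at 7.44 against 28.2 CPM were lower with it in scratch-positive. Ctss, whose protease trims the invariant chain, was at 1345 against 1648 CPM and was not called. Over all members 5 of the 12 were lower in scratch-positive (median -0.91), with H2-Ab1 at 1062 against 2480 CPM, and 0 in scratch-negative (median 0.53). The difference between the libraries was not tested.

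Dendritic cells, which are rich in class II, were unevenly present in the compared groups. All 7 dendritic cell markers tested were lower in scratch-positive Arg1-positive low-S100 cells, among them Ccr7 at 5.18 against 55.6 CPM. The 12 markers of the list summed to 1959 against 5192 CPM there, and to 2677 against 2516 CPM in scratch-negative. Over all members 5 of 10 were lower. Without cells that held 5 or more UMIs of the dendritic cell genes, 9 of 12 class II genes were lower, with a median of -1.33. That limit took out 25 of the 52 scratch-positive Arg1-negative low-S100 cells with any UMI of these genes. It therefore cannot show that dendritic cells were cleared, and their part in the class II difference was not tested. Mgl2 (88.6 against 366 CPM), Clec10a (3.88 against 38.3 CPM) and Retnla (0 against 76.3 CPM), genes tied to alternative activation and in part to dendritic cells, were lower too in scratch-positive low-S100 cells. Of 15 alternative activation genes in those cells, 2 were higher, Ccl24 and Fn1, and 7 lower, with a median log2 ratio of -0.52. Over all members 2 of 15 were higher and 5 lower in scratch-positive, and 7 of 14 higher in scratch-negative. In scratch-negative low-S100 cells 5 of 10 were higher and 1 lower, among them Mrc1, the mannose receptor gene, at 89.2 against 21.5 CPM.

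Monocyte genes were also lower in Arg1-positive than in Arg1-negative low-S100 cells of scratch-positive, and few were called elsewhere. In scratch-positive low-S100 cells 7 of 13 monocyte markers were lower and 0 higher (median -1.45), and in scratch-negative 2 of 14 (median -0.77), while over all members 2 of 14 were lower in scratch-positive and 1 of 14 in scratch-negative. Ly6c2, which marks young monocytes, was at 25.2 against 149 CPM in scratch-positive low-S100 cells (ratio 0.169) and at 456 against 759 CPM in scratch-negative (ratio 0.601, not called). Plac8 was at 295 against 1043 CPM and Chil3 at 106 against 290.4 CPM in scratch-positive. Ccr2, the receptor for CCL2, was at 155 against 232 CPM and was not called. The 12 macrophage markers had none called in scratch-positive low-S100 cells (median 0.12), with Csf1r, part of the rule, at 191 against 172 CPM.

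**Figure D3:**
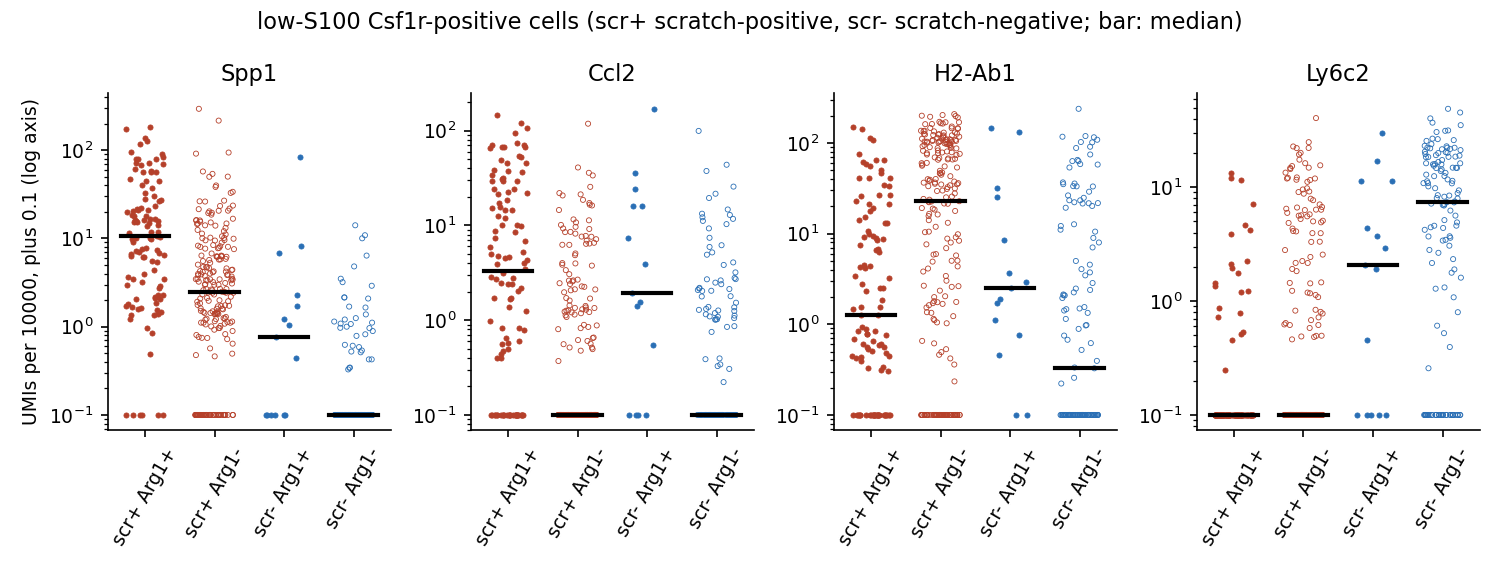
Each point is 1 low-S100 cell, with its UMIs per 10000 plus 0.1 on a log axis for Spp1, Ccl2, H2-Ab1 and Ly6c2, in Arg1-positive and Arg1-negative cells of the scratch-positive and scratch-negative libraries; bars mark the medians. The groups overlap for every gene, and the Ccl2 median is 3.20 in Arg1-positive and 0 in Arg1-negative scratch-positive cells.

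The arginine pathway gave few calls beside Arg1, which the rule chose. Of 13 genes tested in scratch-positive low-S100 cells, 2 were higher, Arg1 itself and Aldh18a1, an enzyme gene of proline synthesis, at 15.9 against 7.30 CPM. In scratch-negative low-S100 cells 3 of 12 were higher, Arg1, Slc7a2 and Odc1. Slc7a2, encoding an arginine transporter, was at 14.2 against 9.81 CPM in these cells (not called) but over all members at 12.9 against 5.99 CPM in scratch-positive (ratio 2.15) and 31.2 against 1.46 CPM in scratch-negative (ratio 21.4). Odc1, which turns ornithine into polyamine precursor, was at 255 against 216 CPM in scratch-positive low-S100 cells, not called, and at 247 against 123 CPM in scratch-negative, a ratio of 2.01. Nos2, the competing enzyme gene for arginine, was at 0.97 against 2.77 CPM in scratch-positive low-S100 cells, and Arg2 was at 21.4 against 26.2 CPM; neither was called.

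Hypoxia and glycolysis genes differed between Arg1-positive and Arg1-negative cells in the scratch-negative library, where 6 of 22 were higher in low-S100 cells (median 0.85), and in scratch-positive none of 23 was called (median 0.32). Vegfa, the vascular growth factor gene, was at 240.3 against 59.1 CPM in scratch-negative low-S100 cells (ratio 4.07), found in 14 of the 15 cells with 20% of its UMIs in 1 cell. In scratch-positive Vegfa was at 98.0 against 75.2 CPM (ratio 1.30). Bnip3, a mitophagy gene induced by low oxygen, was at 141 against 23.5 CPM in scratch-negative and 59.8 against 31.2 CPM in scratch-positive, where it was not called. Without the S100 limit the hypoxia counts were 5 of 23 in scratch-negative and 0 of 23 in scratch-positive, and the difference between the libraries was not tested. Inflammatory genes had 6 of 16 higher and 1 lower in scratch-negative low-S100 cells, and 0 higher and 1 lower of 17 in scratch-positive. Over all members 1 of 17 was higher in scratch-positive and 2 of 17 in scratch-negative. Il1b, at 3170 against 3977 CPM in scratch-positive, was not called.

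Some genes of the osteoclast lineage, which arises from Csf1r-positive precursors, were higher in scratch-positive Arg1-positive low-S100 cells, with 5 of 12 higher and 1 lower (median 0.88). Tnfrsf11a, encoding RANK, the receptor for the osteoclast-inducing ligand, was at 48.9 against 20.1 CPM and Mitf, a transcription factor gene of the lineage, at 43.0 against 15.9 CPM. Acp5 at 511 against 216 CPM, Atp6v0d2 at 111 against 32.5 CPM and Mmp9 at 76.3 against 30.4 CPM were higher too, at 9.82%, 15.5% and 2.70% of their level in the Ctsk-high Csf1r-positive cells that the rule kept out. In scratch-negative 1 of 11 was higher and 1 lower, and over all members 0 of 13 were higher in either library. Dcstamp, needed for osteoclast fusion, was lower in scratch-positive at 52.7 against 154 CPM.

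Of the genes called in both libraries, 16 were higher with and without the S100 limit, 34.8% of the 46 over all members and 51.6% of the 31 in low-S100 cells. The low-S100 cells are part of the cells compared without the limit, so some overlap of the lists is built in. Besides Arg1, Ccl2, Ccl7, Ccl24, Pf4, Ctsl and Fn1 they included Ms4a7, a macrophage membrane gene, Msr1, a scavenger receptor gene, Stab1, another scavenger receptor gene, Abca1, the cholesterol exporter gene, and Pdpn, encoding podoplanin. Msr1 was at 188 against 91.3 CPM in scratch-positive and 192 against 78.1 CPM in scratch-negative low-S100 cells, Abca1 at 58.9 against 28.4 and 85.8 against 14 CPM, and Pdpn at 100.3 against 38.3 and 134 against 9.01 CPM. The remaining members of this set, Tmem37, Tnfrsf9, Trbc1 and Xcl1, include genes of lymphocytes. Lower in both choices of cells were 4 genes, 16% of 25 and 10% of 40, namely Cyr61, Hpgd, Tm4sf1 and Tmem176a. Hpgd, which degrades prostaglandins, was at 5.50 against 17.4 CPM in scratch-positive and 0 against 48.0 CPM in scratch-negative low-S100 cells. Of the 15 highest ranked genes in low-S100 cells, 14 had over 50% of their UMIs in 1 cell of a library, against 0 of the 15 lowest. Over all members 1 of the 15 highest, Ifng, did.

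In scratch-positive low-S100 cells the Ccl2 and H2-Ab1 levels already differed in cells with 1 or 2 Arg1 UMIs, which the rule left out. In scratch-positive low-S100 cells Ccl2 was at 318 CPM with 0 Arg1 UMIs (240 cells), 436 CPM with 1 (27 cells), 688 CPM with 2 (9 cells), 885 CPM with 3 (15 cells) and 2665 CPM with 50 or more (9 cells). H2-Ab1 was at 4290 CPM with 0 Arg1 UMIs, 852 CPM with 1 and 803 CPM with 2, and between 610 and 1622 CPM in every higher class. Spp1 was at 1171, 1627 and 522 CPM with 0, 1 and 2 Arg1 UMIs, between 900.1 and 2969 CPM from 3 to 49, and at 5735 CPM with 50 or more. Ccl2 therefore went up over most classes, while H2-Ab1 differed between 0 UMIs and any. The classes share 1 library and rest on few cells at the top. In scratch-negative, where low-S100 classes above 0 hold at most 5 cells, this order was not seen. There, with any S100, Ccl2 was at 110.2, 129, 59.5, 25.5 and 7.29 CPM with 0 to 4 Arg1 UMIs and at 991 CPM with 50 or more, and H2-Ab1 at 621, 1158 and 661 CPM with 0, 1 and 2.

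**Figure D4:**
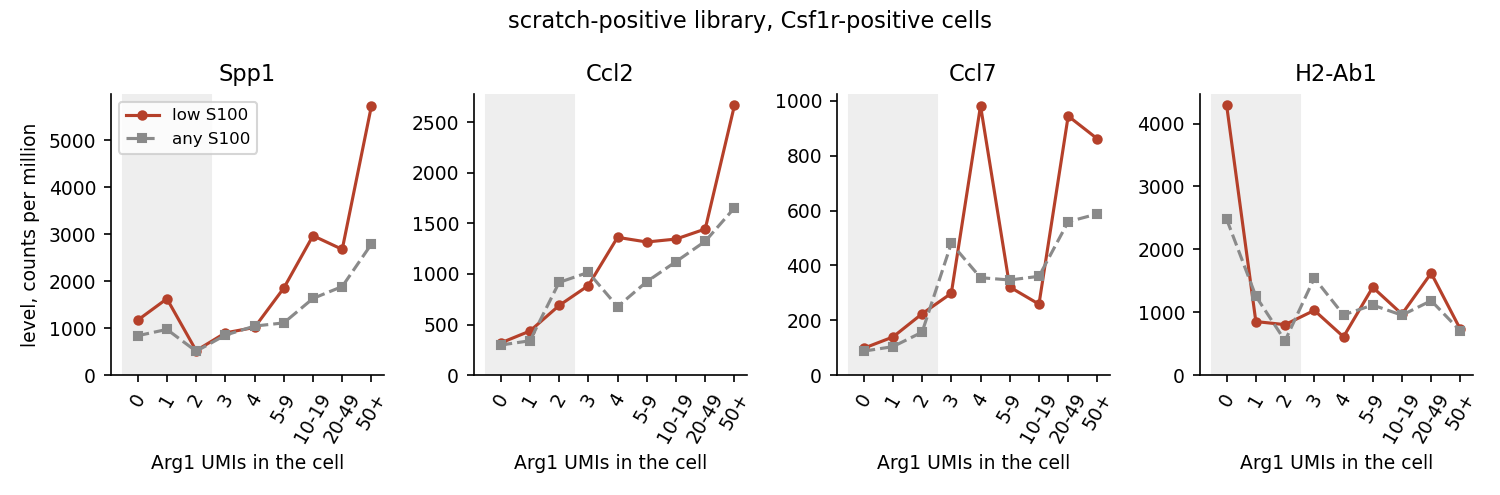
Lines give the level (CPM) of Spp1, Ccl2, Ccl7 and H2-Ab1 in Csf1r-positive scratch-positive cells by the number of Arg1 UMIs in the cell, for low-S100 cells (red) and for all cells (grey, dashed); the shaded range holds cells below the rule. Ccl2 goes from 318 CPM at 0 Arg1 UMIs to 2665 CPM at 50 or more, and H2-Ab1 is at 4290 CPM at 0 and at most 1622 CPM in every other class of low-S100 cells.

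Set against 2 narrower kinds of Arg1-negative low-S100 cell in scratch-positive, the class II difference was found again. C1q-high cells, with at least 10 C1qa, C1qb and C1qc UMIs per 10000, carry genes of mature tissue macrophages, and C1q-low cells with Ccr2 carry a receptor gene of monocytes. Neither kind was cleared of dendritic cells, and 25 of all 240 Arg1-negative low-S100 cells held at least 5 UMIs of dendritic cell genes. Against the 91 C1q-high Arg1-negative cells, 3.33% of 9032 genes were higher and 2.24% lower, and 9 of 12 class II genes were lower (median -1.69), with H2-Ab1 at 1178 against 4434 CPM. Against the 97 Ccr2-positive C1q-low cells, 7.3% of 8845 genes were higher and 5.95% lower, and 10 of 12 class II genes were lower, with H2-Ab1 at 3818 CPM in the Arg1-negative cells. Ccl2 was at 1405 CPM in members against 488 CPM in C1q-high and 252 CPM in Ccr2-positive Arg1-negative cells, ratios of 2.88 and 5.58. Fn1 was at 597 CPM in members against 142 CPM in the C1q-high cells (ratio 4.21) and 508 CPM in the Ccr2-positive cells (ratio 1.18, not called). Spp1 had a ratio of 2.43 against the C1q-high cells and of 1.57, not called, against the Ccr2-positive cells. Monocyte markers were higher in 4 of 11 against the C1q-high cells and lower in 11 of 13 against the Ccr2-positive cells. In the second comparison Ly6c2 was at 25.2 against 404 CPM. Ccr2 is itself a marker of this list and chose the second kind of cell, so a lower count there is partly built in. Most class II genes were thus lower in members than in either kind, and the part of dendritic cells in these 2 comparisons was not tested.

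The scratch-positive low-S100 members themselves were of 2 kinds by C1q, 59 C1q-high (53.6%) and 51 C1q-low. In scratch-negative 4 of 15 were C1q-high (26.7%), and among Arg1-negative low-S100 cells 37.9% in scratch-positive and 5.88% in scratch-negative. Between the kinds, 3% of 8164 genes were higher in C1q-high cells and 2.18% lower. Ccl12 was at 248 CPM in C1q-high and 19.3 CPM in C1q-low members (ratio 12.8), Pf4 at 1571 and 683 CPM, Mrc1 at 148 and 61.8 CPM, Apoe at 1456 and 449 CPM, and Cx3cr1, the fractalkine receptor gene, at 108 and 15.2 CPM. The C1q-low members had more osteoclast lineage RNA, with 7 of 12 of these genes lower in C1q-high cells (median -1.25). Acp5 was at 196 CPM in C1q-high and 977 CPM in C1q-low members and Mmp9 at 28.2 and 148 CPM. Of 11 monocyte markers 5 were lower in C1q-high members, among them Chil3 at 47.1 and 194 CPM. Spp1 at 2529 and 2337 CPM and H2-Ab1 at 1111 and 1278 CPM were not called, and none of the 12 class II genes was. Arg1 was at 536 CPM in C1q-high and 779 CPM in C1q-low members.

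Between the 2 tumour libraries, the scratch-positive members had less interferon-stimulated RNA than the scratch-negative members. Over all members 16.9% of 11062 genes were higher and 4.6% lower in scratch-positive, with a median log2 ratio of 0.34. These are 1873 higher and 509 lower genes, against 1259 and 786 when the scale is set by the median of gene ratios. In low-S100 members 5.59% of 8359 were higher and 7.67% lower, with a median of 0.11. Of 20 type I interferon-stimulated genes tested over all members, 11 were lower and 0 higher (median -1.09), and of 18 in low-S100 members 17 were lower and 0 higher (median -2.61). Isg15, a ubiquitin-like antiviral protein gene, was at 152 CPM in scratch-positive and 348 CPM in scratch-negative members (ratio 0.438) and at 73.4 and 584 CPM in the low-S100 members (ratio 0.126; 0.103 to 0.154). Of the low-S100 members, 47 of 110 in scratch-positive and 12 of 15 in scratch-negative held an Isg15 UMI, and 30% of the scratch-negative UMIs were in 1 cell. Without the highest cell of each library Isg15 was at 59.96 and 423 CPM. Irf7, a regulator of interferon genes, was at 51.9 and 96.8 CPM over all members (ratio 0.537, not called) and at 30.4 and 182 CPM in low-S100 members. Rsad2 was at 36.6 and 121 CPM over all members, and in low-S100 members 1 scratch-negative cell held 78.4% of its UMIs. Interferon-gamma induced genes had 4 of 17 lower over all members (median -0.62) and 13 of 16 lower in low-S100 members (median -1.85), with Gbp2, a GTPase gene, at 78.3 and 807 CPM in the low-S100 members.

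Isg15, Irf7 and Gbp2 had lower levels in scratch-positive than in scratch-negative Arg1-negative low-S100 cells too. There Isg15 was at 116 CPM in scratch-positive, 431 CPM in scratch-negative and 161 CPM in control, Irf7 at 47.8, 209 and 146 CPM, and Gbp2 at 165 CPM in scratch-positive and 367 CPM in scratch-negative. With an S100 limit of 300 UMIs per 10000 (147 and 20 members), 13 of 19 interferon-stimulated genes were lower, with a median of -1.65, and 7 of 17 interferon-gamma induced genes.

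RNA of the monocyte markers differed in the same way. Ly6c2 was at 193 CPM in scratch-positive and 450 CPM in scratch-negative members (ratio 0.430) and at 25.2 and 456 CPM in low-S100 members (ratio 0.0553). In Arg1-negative low-S100 cells of the 2 libraries it was at 149 and 759 CPM. Of the monocyte markers, 3 of 14 were lower over all members (median -0.59) and 9 of 11 in low-S100 members (median -1.51). Neutrophil markers were lower in 9 of 12 over all members, with S100a8 at 38740 CPM in scratch-positive and 121000 CPM in scratch-negative. The share of neutrophil RNA thus moved with the library, and its part in the results over all members was not tested.

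Spp1 was higher in scratch-positive members, at 1634 CPM, than in scratch-negative members, at 306 CPM (ratio 5.35; 5.09 to 5.62), and at 2452 against 367 CPM in low-S100 members (ratio 6.68). In Arg1-negative low-S100 cells Spp1 was at 1171 CPM in scratch-positive and 101 CPM in scratch-negative. It was at 315 and 179 CPM in the Csf1r-free neutrophils of the 2 libraries. Of 18 lipid-associated genes 8 were higher over all members (median 0.52), and 3 of 16 in low-S100 members, namely Spp1, Trem2 and Lpl (median 0.22). Trem2, a lipid-sensing receptor gene, was at 193 and 52.3 CPM over all members and at 301 and 144 CPM in low-S100 members. Epithelial markers moved along with these genes over all members, with 7 of 8 higher and a summed level of 78.6 CPM in scratch-positive and 11.2 CPM in scratch-negative. Krt8, limited by the rule, was at 28.3 and 1.61 CPM. The part of tumour cell RNA in these differences was not tested.

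Complement and resident macrophage genes had 6 of 14 higher and 2 lower over all members (median 1.12), and 5 of 12 higher and 2 lower in low-S100 members (median 0.67). C1qa, a subunit of the first complement component, was at 967 CPM in scratch-positive and 201 CPM in scratch-negative members (ratio 4.81). In low-S100 members it was at 1259 and 436 CPM, the scratch-negative level resting on 3 of 15 cells. Axl, a receptor gene for dying cells, was at 36.0 and 12.1 CPM over all members, and Mertk, of the same family, at 14.2 and 3.75 CPM. Cx3cr1 was at 55.9 and 10.2 CPM over all members.

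Ccl2, Ccl7 and Ccl12 were higher in scratch-positive over all members and were not called in low-S100 members. Ccl2 was at 1159 CPM in scratch-positive and 440 CPM in scratch-negative members (ratio 2.63), and in low-S100 members its ratio of 1.29 was not called. Ccl7 had ratios of 2.21 over all members and 0.962, not called, in low-S100 members, and Ccl12 of 6.77 and 1.05, the last not called. Ccl24 went the other way, at 48.4 CPM in scratch-positive and 124 CPM in scratch-negative members and at 37.5 and 285 CPM in low-S100 members, where 1 cell held 69.8% and 72.3% of the UMIs of each library. Of 12 CC chemokine genes 5 were higher and 2 lower over all members, and 1 higher and 3 lower in low-S100 members. Tnf, the inflammatory cytokine gene, was at 162 and 74.97 CPM and Il1b at 4315 and 2127 CPM over all members, with Il1b not called in low-S100 members (ratio 1.62). Slc7a2 was at 12.9 and 31.2 CPM and Nos2 at 4.02 and 14.5 CPM, both lower in scratch-positive members, and Odc1 at 204 and 98.0 CPM was higher.

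Proliferation, class II and hypoxia genes gave counts that depended on which cells were taken. Proliferation genes had 2 of 18 higher over all members and 12 of 18 in low-S100 members (median 1.65), or 6 of 18 with the S100 limit at 300 (median 0.61). Mki67, a proliferation marker gene, at 172 and 24.0 CPM in low-S100 members, rested on 3 scratch-negative cells with 71.4% of the UMIs in 1. Over all members Mki67 was at 160.4 CPM in scratch-positive and 166 CPM in scratch-negative. Class II genes had 3 of 12 lower in low-S100 members (median -0.65), none with the S100 limit at 300 or without cells holding dendritic cell UMIs (median -0.34), and 1 of 12 higher over all members, where H2-Ab1 was at 1062 and 967 CPM. Hypoxia genes had 6 of 23 lower in low-S100 members (median -0.37), among them Vegfa at 98.0 and 240.3 CPM, and 1 of 23 over all members, where Vegfa was at 116 and 126 CPM.

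**Figure D5:**
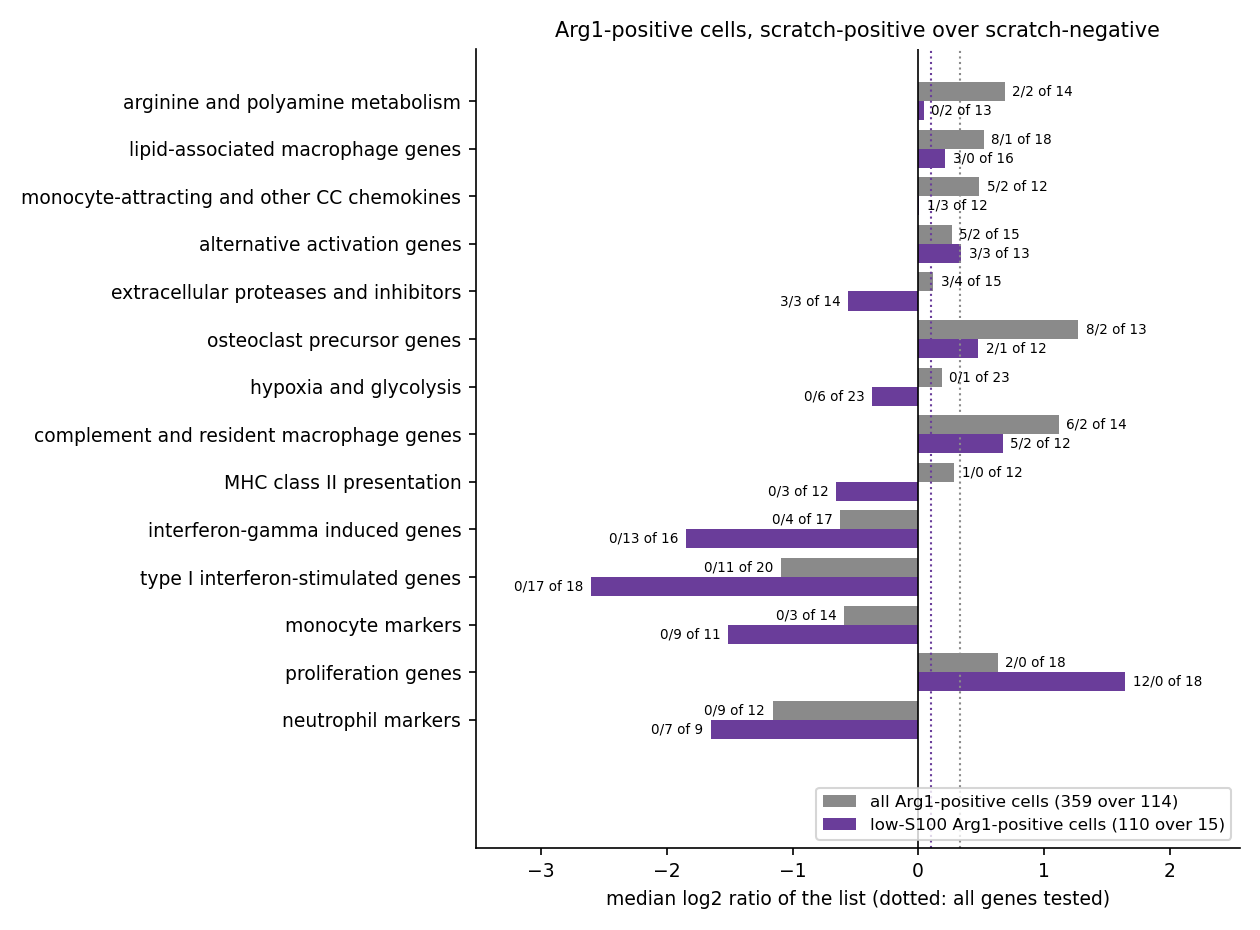
Bars give the median log2 ratio of scratch-positive over scratch-negative members for 14 gene lists, over all members (grey) and in low-S100 members (purple), with the numbers of genes higher and lower of those tested and dotted lines at the median over all genes. The type I interferon-stimulated genes lie at -1.09 over all members and at -2.61 in low-S100 members, and the proliferation bar stands out in the low-S100 members, at 1.65.

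Among the 15 highest ranked genes of scratch-positive over scratch-negative members were Cd207, encoding langerin, at 9.95 and 0.179 CPM, and Ccl17, at 35.9 and 1.96 CPM. Over 50% of the UMIs of 4 others of these 15, Jchain, Gdf15, Igha and Igkc, came from 1 cell. Of the 15 lowest, 12 had over 50% of their UMIs in 1 cell, among them the red cell genes Car1, Klf1 and Rhd. In low-S100 members 1 of the 15 highest and 4 of the 15 lowest did.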

How the data were processed

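The deposited values were raw UMI counts per gene and barcode, which the authors obtained from Cell Ranger (version 6.1.2 per the file headers) on build mm10, per the submitters' processing notes. The 3 matrices listed 31053 genes, with 9504 barcodes and 395654008 UMIs in scratch-positive, 8517 and 167623741 in scratch-negative, and 7490 and 100089008 in control. Counts were summed per library and cell group and divided by the group total (CPM). Levels carry exact Poisson and ratios exact conditional binomial 95% intervals; a 0 allows up to 3 counts. With 1 library per group there was no test. Calls are fixed in the text (2-fold, interval on 1 side of 1, 20 UMIs). The steps were run on simulated Poisson counts of whole groups, which held no cell-to-cell spread. That run therefore cannot show how well the intervals hold where few cells carry most UMIs. Most genes named without a list are the 15 highest and lowest called ones, ranked in both libraries by the smaller log2 ratio. Between the tumour libraries they needed at least 50 UMIs and at least 10% of the level in other cell gates. Others, such as Msr1 and Abca1, are named because they were called in both libraries with and without the S100 limit. Doublets were marked with Scrublet at an expected rate of 0.06 and not removed; its call was replaced by 0.8% per 1000 cells. The members, lists and comparisons were chosen with earlier results of these data known. Showing low-S100 cells beside the main results, the other S100 limits and leaving out single cells was chosen after seeing the data. Software was scanpy 1.11.5 and scipy 1.17.1 under Python 3.11.15, with pandas 2.3.3 and numpy 2.4.6.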

Additional observations from a re-analysis of the deposited data

Results flagged for a closer look

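In 5 genes the low-S100 Arg1-positive cells lay above the Arg1-negative cells in 1 tumour library and below them in the other, by the call rule in each. The difference between the libraries was not tested. Dcstamp, needed for osteoclast fusion, had log2 ratios of -1.55 in scratch-positive (163 UMIs in Arg1-positive and 614 in Arg1-negative cells) and 1.39 in scratch-negative (9 and 23 UMIs). Gbp2, an interferon-induced GTPase gene, had -1.07 in scratch-positive (242 and 654 UMIs) and 1.13 in scratch-negative (235 and 734 UMIs). Mmp9, a gelatinase gene, had 1.32 in scratch-positive (236 and 121 UMIs) and -4.42 in scratch-negative (1 and 165 UMIs). Pgf, a placental growth factor gene, had -1.5 in scratch-positive (70 and 255 UMIs) and 1.71 in scratch-negative (40 and 83 UMIs). Igkc, an antibody light chain gene, had 2.44 in scratch-positive (23 and 5 UMIs) and -2.75 in scratch-negative (2 and 97 UMIs).

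Arg1 was also found outside the members, in the fibroblast gate (collagen-rich cells with no Ptprc UMI), at 7.26 CPM in scratch-positive and 34.3 CPM in scratch-negative, and it was at 0 in that gate in control.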

How the results depend on the processing

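With 1 library per group, no replicate could be left out. No paired analysis was possible because each group is 1 library. Only 15 scratch-negative members were low in S100, and genes with too few UMIs under an alternative have no value. The share of Arg1-positive cells among Csf1r-positive cells in scratch-positive was 46.2% with at least 1 Arg1 UMI, 31.0% with 5, 21.7% with 10, 27.0% with at least 2 Arg1 UMIs per 10000, 17.8% thinned to 5000 UMIs, 27.5% without the Ctsk limit and 28.5% without high-S100 cells. In scratch-negative it was 16.7% with at least 1 UMI, 7.84% with 10 and 6.38% thinned. Genes higher in scratch-positive over scratch-negative members numbered 1873, against 467 without high-S100 cells and 3579 at 1.5-fold. Lower genes numbered 509, against 786 with median-of-ratios scaling, 286 with at least 100 UMIs and 1076 at 1.5-fold. Genes higher in Arg1-positive cells of both libraries numbered 46, against 23 with at least 100 UMIs and 176 at 1.5-fold. Lower genes numbered 25, against 45 without Scrublet-marked cells, 40 without high-S100 cells, 12 with at least 100 UMIs and 96 at 1.5-fold. In 6 cases a named gene changed sign. For scratch-positive over scratch-negative these were Igkc (log2 -1.07 at 2 Arg1 UMIs per 10000, -1.09 without Scrublet-marked cells) and Car2 (0.93 at 2 per 10000, 0.73 without high-S100 cells). For Arg1-positive over Arg1-negative cells of scratch-negative they were Ifng (-4.11 at 2 per 10000) and Fscn1 (0.036 with equal weight per cell). The cause was not tested. Of the other values for named genes, 94 moved and 475 did not, and of the list medians 137 moved and 532 did not.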

Other observations

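Iron genes were described in neither comparison above. In scratch-positive low-S100 cells 2 of 9 were higher in Arg1-positive cells and 0 lower. Tfrc, the transferrin receptor gene, was at 38.8 CPM in Arg1-positive and 14.9 CPM in Arg1-negative cells there, and at 65.2 and 27.0 CPM in scratch-negative, where 1 cell held 89.5% of the UMIs of the Arg1-positive cells. Steap3, an iron reductase gene, was at 16.2 and 5.28 CPM in scratch-positive. Folr2, a folate receptor gene of resident macrophages, was at 22.6 and 3.27 CPM in scratch-positive, the 1 complement or resident macrophage gene of 13 that was called. The growth factor genes Pdgfa (78.0 and 38.0 CPM) and Pdgfb (74.1 and 35.7 CPM) were higher in the scratch-positive Arg1-positive cells as well, and in scratch-negative neither was called.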
